A study of Mus musculus with 60 samples.

Results

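Oxidative phosphorylation was examined in mouse kidney through the transcripts of its subunits, with those encoded in the nucleus and those encoded in mitochondrial DNA kept apart. Genes were chosen by symbol: Nduf followed by a, b, c, s or v and a digit, Uqcr, Cyc1, Cox4 to Cox8, Sdha to Sdhd, Atp5, and the mt-Nd, mt-Cytb, mt-Co and mt-Atp genes. Symbols containing -ps were left out, and a level of at least 1 CPM (counts scaled to the size of the library) was required in at least 1 of 60 samples. Of 103 genes that fitted the symbols, 89 passed, comprising 82 nuclear and 7 mitochondrial (mt-) genes among the 15546 genes with that level of expression. The nuclear genes comprised 37 of complex I, 4 of complex II, 9 of complex III, 15 of complex IV, and 17 of complex V.

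RNA-Seq covered 60 male C57BL/6J mice, with 5 mice of each of 2 genotypes at Zeitgeber time (ZT) 0, 4, 8, 12, 16, and 20, where lights came on at ZT0 and went off at ZT12. All mice carried floxed alleles of Bmal1 (Arntl), which encodes the clock factor BMAL1. Control mice were Bmal1lox/lox littermates, and cKOt mice were Bmal1lox/lox/Pax8-rtTA/LC1-Cre, in which the Pax8 promoter drives the DOX-dependent activator of Cre along the renal tubule. Both genotypes drank doxycycline (DOX) for 2 weeks from 8 weeks of age, and kidneys were taken 4 weeks after it ended, under 12 h of light and 12 h of darkness with food at will. The labels name the tissue as renal tubule, whereas the study's methods describe frozen kidneys. Markers of podocytes, endothelium, and macrophages were present in every library, at summed median levels of 351.7, 533.3, and 206.8 CPM in control mice, beside 17270 CPM for markers of the proximal tubule. In such bulk samples, fewer cells of a type and less RNA per cell cannot be told apart.

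Oxidative phosphorylation passes electrons from NADH through complex I, and from succinate through complex II, to complex III, cytochrome c, and complex IV, where oxygen is reduced. Complexes I, III, and IV pump protons across the inner mitochondrial membrane, and complex V, the ATP synthase, uses the returning protons to make ATP. Most subunits are encoded in the nucleus and imported, mitochondrial DNA encodes core subunits of complexes I, III, IV, and V, and complex II is encoded in the nucleus alone. The proximal tubule and the thick ascending limb rely on this pathway to power sodium transport.

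Of the 13 mt- genes that fitted the symbols, 6 were below 1 CPM in all 60 samples, namely mt-Nd3, mt-Nd4l, mt-Co2, mt-Co3, mt-Atp6, and mt-Atp8. Summed over all samples they held between 0 counts (mt-Atp8) and 61 counts (mt-Co3). Stretches of mitochondrial DNA that are also present in the nuclear genome give reads that align in more than 1 place, and such reads were not assigned to a gene by the counting. Of all windows of 100 bases, 99.9% in mt-Co3, 99.5% in mt-Co2 and in mt-Atp6, 98.5% in mt-Nd4l, and 97.6% in mt-Nd3 had an identical copy in another annotated gene, against 0% in mt-Atp8. Among the 7 genes retained, the shares were 60.8% in mt-Nd4, 30.8% in mt-Co1, 3.19% in mt-Nd2, and 0% in mt-Nd1, mt-Nd5, mt-Nd6, and mt-Cytb. Only annotated transcripts were searched, so a share of 0%, as in mt-Atp8, does not show that the nuclear genome holds no copy. The copies of mt-Co3 and mt-Co2 are the unprocessed pseudogenes Gm28437 (GRCm38 chr1:24613189-24613971, minus strand) and Gm28661 (chr1:24614885-24615565, minus strand). The first 90 bases of both genes (plus strand, chrM:8607-8696 and chrM:7013-7102) are shown because they are identical to their copies, and all letters are in lower case because the whole stretch is shared.
mt-Co3: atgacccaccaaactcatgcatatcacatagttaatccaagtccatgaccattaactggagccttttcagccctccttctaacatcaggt
mt-Co2: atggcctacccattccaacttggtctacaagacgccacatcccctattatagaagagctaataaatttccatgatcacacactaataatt
These copies held no more than 4 counts (Gm28437) and 5 counts (Gm28661) in any sample. Another copy that shares 88 windows with mt-Co2, Gm13341, held 37 to 98 counts per sample. The levels of mt-Nd4 and mt-Co1 are uncertain because part of each gene is shared, and subunits of complex V encoded in mitochondrial DNA are not represented.

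Among nuclear members, 66 of 82 shared no window of 100 bases with another annotated gene, and 1, Atp5l, shared at least 50% (61.3%). Ndufb4 (33.4%) and Atp5h (29.5%) followed, and the values of these genes are uncertain in the same way. The transcript annotated as Ndufb1-ps, which the rule on symbols left out, was present at a median of 59.2 CPM.

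Between 17791420 and 20906706 reads per sample were counted on genes. The targeted gene, Arntl, ranged over the day from 2.73 to 48.4 CPM in the means of control mice and from 17.4 to 24.4 CPM in the means of cKOt mice. Counts over the whole gene do not separate the deleted part, so this level does not measure the deletion. Reads that aligned in more than 1 place made up 25.7%, 26.5%, and 29.4% (lowest, median, and highest) of the records in control mice and 24.3%, 25.3%, and 26.9% in cKOt mice, and records outside genes a median of 6.09% and 6.74%. The part of either in the differences was not tested. The library of cKOt mouse 5 at ZT4 stood apart, with 101500 CPM summed over the mt- members against 76080 to 81800 CPM in the other cKOt mice at ZT4. Without it, the mean genotype difference called the same numbers of members, with 42 nuclear and 7 mt- members lower and 3 nuclear members higher.

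All differences are cKOt minus control on the log2 scale, averaged over 6 time points, and adjusted p values come from the quasi-likelihood F test of edgeR over 15546 genes. Libraries were scaled by the trimmed mean of M values (TMM), which sets the typical gene near 0. The TMM factors had a median of 0.970 (0.908 to 1.016) in control mice and 1.032 (0.989 to 1.069) in cKOt mice. The median difference of all genes was 0.01 with TMM and 0.09 on total counts without TMM. Differences of about 0.1 therefore depend on the scaling, and counts of calls are given under both.

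Transcripts encoded in mitochondrial DNA were lower in cKOt mice, for 7 of 7 members (100%, where 23.2% of all genes tested were called lower). Their differences ran from -0.69 to -0.25 with a median of -0.44, and all 7 were also lower on total counts without TMM, with a median of -0.35. At each of the 6 time points, 7 of 7 lay below 0. The 5 complex I transcripts lay between -0.69 and -0.32, mt-Cytb, in complex III, at -0.33, and mt-Co1, in complex IV, at -0.25.

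mt-Nd1 (ENSMUSG00000064341, GRCm38 chrM:2751-3707, plus strand) encodes a core membrane subunit of complex I that helps to form the ubiquinone site. It measured 11007, 12601, and 15415 CPM (lowest, median, and highest) in control mice and 7951, 9104, and 11217 CPM in cKOt mice. The groups barely overlapped, with 29 of 30 cKOt mice below every control mouse. The log2 difference was -0.44 ± 0.03 (SE, n = 30 per genotype; edgeR adjusted p = 8.77e-18), and it was called lower at all 6 time points.

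mt-Nd2 (chrM:3914-4951), mt-Nd4 (chrM:10167-11544), and mt-Nd5 (chrM:11742-13565) encode the antiporter-like subunits through which complex I moves protons. mt-Nd2 measured 6165, 7390, and 9629 CPM in control mice and 4666, 5474, and 7196 CPM in cKOt mice, with 22 of 30 cKOt mice below every control mouse (log2 difference -0.45 ± 0.04, edgeR adjusted p = 4.91e-14). mt-Nd4 measured 5248, 6011, and 7518 CPM in control mice and 4139, 4786, and 6854 CPM in cKOt mice (-0.32 ± 0.04, edgeR adjusted p = 1.25e-10). mt-Nd5 measured 10204, 14212, and 17270 CPM in control mice and 7275, 9747, and 13918 CPM in cKOt mice (-0.47 ± 0.04, edgeR adjusted p = 5.11e-15). The ranges of these genes overlapped between genotypes, while all 30 cKOt mice lay below the control median for mt-Nd2 and mt-Nd5, and 28 of 30 for mt-Nd4.

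mt-Nd6 (chrM:13552-14070, minus strand) encodes the subunit of complex I that is read from the opposite strand, and it was the lowest of the 7. It measured 18.2, 29.6, and 73.5 CPM in control mice and 11.9, 20.0, and 41.2 CPM in cKOt mice, a difference of -0.69 ± 0.11 (edgeR adjusted p = 4.26e-07). The genotypes overlapped broadly, and 26 of 30 cKOt mice lay below the control median. Its transcript is known to carry little or no poly(A) tail, and the libraries were selected for poly(A), so its level per length (53.4 CPM per kb against 22308 CPM per kb for mt-Co1) is that of captured RNA.

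mt-Cytb (chrM:14145-15288), the subunit of complex III that carries both heme b groups, measured 22046, 25024, and 30648 CPM in control mice and 17512, 20354, and 25263 CPM in cKOt mice (-0.33 ± 0.03, edgeR adjusted p = 6.18e-14). mt-Co1 (chrM:5328-6872), the subunit of complex IV that holds the oxygen-reducing site, measured 30943, 37602, and 44432 CPM in control mice and 26225, 31165, and 39109 CPM in cKOt mice (-0.25 ± 0.02, edgeR adjusted p = 2.02e-13). Of 30 cKOt mice, 23 for mt-Cytb and 15 for mt-Co1 lay below every control mouse. On the scale of CPM per kb of exon, the levels ran from mt-Co1 (22308) and mt-Cytb (20097) through mt-Nd1 (11448), mt-Nd5 (6620), mt-Nd2 (6353), and mt-Nd4 (3958) to mt-Nd6 (53.4).

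**Figure D1:**
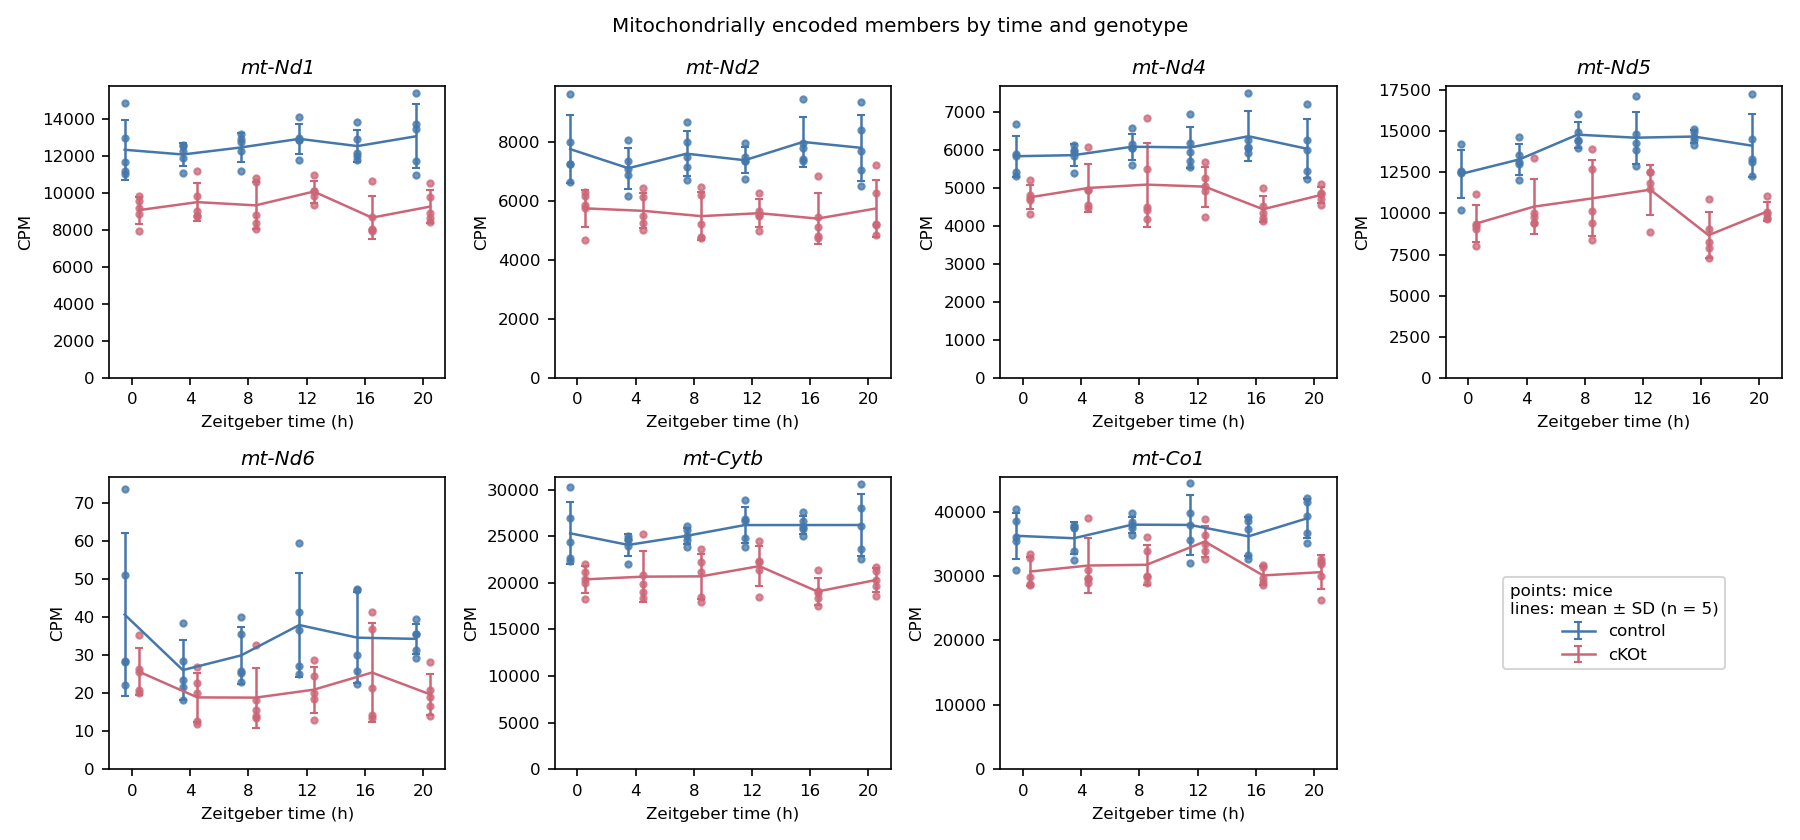
CPM of the 7 mitochondrially encoded members (vertical axes, from 0) against Zeitgeber time in h (horizontal axes), with 1 point per mouse and lines for the mean ± SD of 5 mice, control in blue and cKOt in red. For mt-Nd1, 29 of 30 cKOt mice sit below every control mouse, and the distance between genotypes is seen at all 6 time points.

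Among the 82 nuclear members, 3 were higher in cKOt mice (3.66%, against 26.8% of all genes tested) and 42 were lower (51.2%, against 23.2%), while 37 passed in neither direction. The median difference was -0.07, and 68 of 82 (82.9%) lay below 0, compared with 46.4% of all genes. On total counts without TMM, 19 were higher (23.2%, against 49.6% of all genes) and 11 were lower (13.4%, against 13.1%), with a median of 0.00 beside 0.09 for all genes. The nuclear members thus lay below the median gene under both scalings (71 of 82 with TMM and 72 of 82 without), but their direction against 0 depended on the scaling. The 11 lower members without TMM were all among the 42, and the 3 higher members were higher under both.

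The nuclear differences were small. With a fold change above 1.2 also required, 1 nuclear member was higher and 2 were lower, and 6 of the 7 mt- members were lower. The share of all genes at that threshold was not counted, so these counts have no background beside them. The median absolute log2 difference of all genes was 0.10. Among the 39 lower members with a control median of at least 10 CPM, the fall ran from 3.32% to 17.7% (median 7.35%). Standard errors over the 82 members ran from 0.01 to 0.48 with a median of 0.03. Within the 6 library batches the median of the nuclear members ran from -0.15 to -0.01 and that of the mt- members from -0.52 to -0.28, and all 7 mt- members were lower in each batch.

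**Figure D2:**
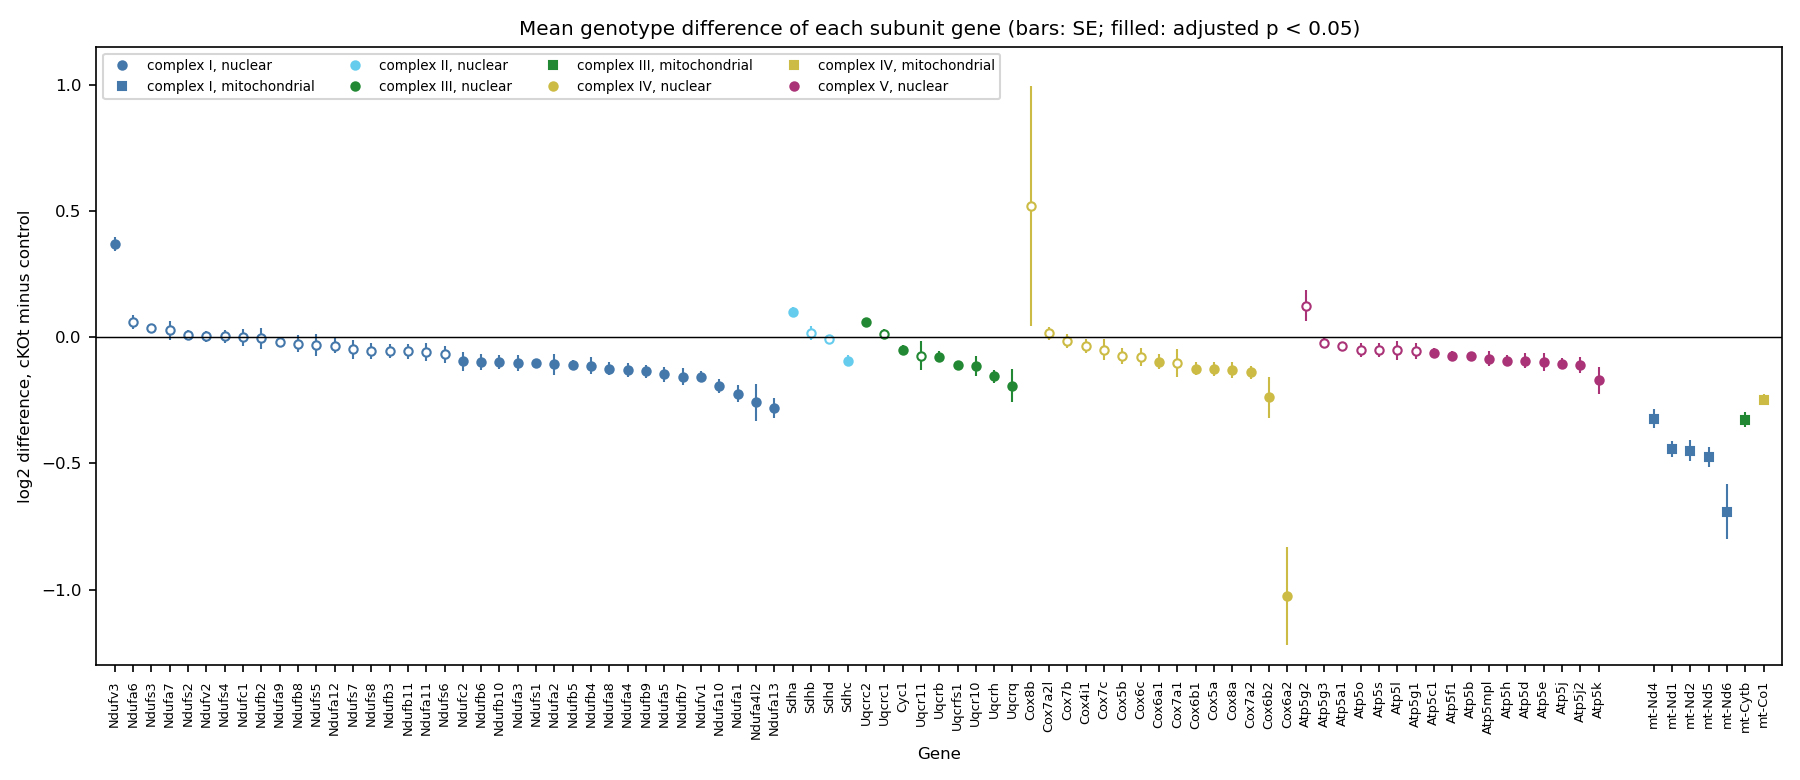
Log2 difference, cKOt minus control, averaged over the day (vertical axis) for each of 82 nuclear members (circles, by complex) and 7 mt- members (squares, at the right), with bars for the SE and filled symbols for an adjusted p below 0.05. Most nuclear members lie slightly below 0 (median -0.07), Ndufv3 lies above at 0.37, and the mt- members lie between -0.69 and -0.25; the nuclear values depend on the scaling of libraries.

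Complex I takes electrons from NADH. With TMM, 1 of its 37 nuclear members was higher (2.7%, against 26.8% of all genes) and 18 were lower (48.6%, against 23.2%, median -0.07). Without TMM 9 were higher (24.3%, against 49.6%) and 7 lower (18.9%, against 13.1%), with a median of -0.00. The 7 core subunits, which carry the flavin and iron-sulfur clusters, had 0 higher and 2 lower (28.6%, near the 23.2% of all genes), and without TMM 3 higher and 1 lower. Of the other 28, left after setting Ndufa4 and Ndufa4l2 aside, 1 was higher and 14 were lower (50.0%, median -0.08), and without TMM 6 were higher and 5 lower (median -0.01).

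Ndufv3 (ENSMUSG00000024038, GRCm38 chr17:31520115-31531331, plus strand), an accessory subunit beside the NADH-binding flavoprotein, rose in cKOt mice. It measured 80.4, 97.7, and 118.8 CPM in control mice and 90.1, 128.2, and 153.5 CPM in cKOt mice, and 20 of 30 cKOt mice lay above every control mouse. The difference was 0.37 ± 0.03 (29.2%, edgeR adjusted p = 2.44e-16), against 0.44 without TMM. It was called higher at all 6 time points, from 0.21 at ZT20 to 0.54 at ZT12. The lowest cKOt value, 90.1 CPM, belonged to the library that stood apart at ZT4, where the other 4 mice measured 125.6 to 137.5 CPM.

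Ndufv1 (ENSMUSG00000037916, chr19:4007384-4012806, minus strand), the core subunit that binds NADH and its flavin, measured 220.8, 286.0, and 359.5 CPM in control mice and 162.6, 264.8, and 322.8 CPM in cKOt mice, and it fell by 0.16 ± 0.02 (edgeR adjusted p = 1.68e-08; -0.09 without TMM). Ndufa13 (ENSMUSG00000036199, chr8:69894180-69902558, minus strand), an accessory subunit also studied as GRIM-19, measured 63.5, 114.7, and 167.0 CPM in control mice and 46.1, 93.4, and 136.2 CPM in cKOt mice, and it fell by 0.28 ± 0.04 (edgeR adjusted p = 2.64e-08; -0.23 without TMM). Both pairs of ranges overlapped, with 28 and 27 of 30 cKOt mice below the control median. Ndufa4, first isolated with complex I and since placed in complex IV, had the highest level per length among the complex I symbols (297 CPM per kb) and a difference of -0.13 ± 0.03 (edgeR adjusted p = 4.73e-05) that was -0.03 without TMM (adjusted p = 0.344). Its stress-linked relative Ndufa4l2 was scarce, at medians of 1.88 and 1.68 CPM, and fell by 0.26 ± 0.07 (edgeR adjusted p = 0.00314).

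Complex II, succinate dehydrogenase, links the tricarboxylic acid (TCA) cycle to the chain. Its 4 members split, with 1 higher, 1 lower, and 2 that did not pass (median 0.00), and without TMM 3 were higher and 0 lower. Sdha (ENSMUSG00000021577, chr13:74322254-74350280, minus strand), the flavoprotein that oxidizes succinate, measured 979.6, 1088, and 1221 CPM in control mice and 1038, 1173, and 1271 CPM in cKOt mice. It rose by 0.10 ± 0.02 (7.32%, edgeR adjusted p = 3.32e-06; 0.19 without TMM), with 8 of 30 cKOt mice above every control mouse and 2 below the control median. Sdhc, a membrane anchor, measured 231.1, 249.3, and 281.3 CPM in control mice and 211.4, 233.7, and 263.7 CPM in cKOt mice, and fell by 0.09 ± 0.02 (edgeR adjusted p = 0.000686), a call that was lost without TMM (-0.01, adjusted p = 0.748). Sdhb, the iron-sulfur subunit, had a difference of 0.02 ± 0.03 (edgeR adjusted p = 0.675) and Sdhd, the other anchor, -0.01 ± 0.02 (edgeR adjusted p = 0.725). Without TMM they were 0.09 and 0.08, both called higher, where the median of all genes was 0.09.

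Complex III passes electrons from ubiquinol to cytochrome c. With TMM, 1 of its 9 nuclear members was higher (11.1%, against 26.8% of all genes) and 6 were lower (66.7%, against 23.2%, median -0.08). Without TMM 2 were higher (22.2%, against 49.6%) and 2 lower (22.2%, against 13.1%). Uqcrc2 (ENSMUSG00000030884, chr7:120635176-120659524, plus strand), a core protein of the matrix arm, measured 503.3, 580.3, and 696.2 CPM in control mice and 516.8, 617.3, and 756.1 CPM in cKOt mice, and it rose by 0.06 ± 0.01 (4.27%, edgeR adjusted p = 0.000545; 0.16 without TMM). Uqcrh (ENSMUSG00000063882, chr4:116066965-116075071, minus strand), the hinge protein at the cytochrome c1 site, measured 198.8, 237.9, and 313.4 CPM in control mice and 179.1, 218.0, and 258.2 CPM in cKOt mice, and it fell by 0.16 ± 0.02 (edgeR adjusted p = 3.06e-07; -0.06 without TMM, adjusted p = 0.0359). Ranges overlapped for both. Uqcrfs1, the Rieske iron-sulfur protein, had a difference of -0.11 ± 0.02 (edgeR adjusted p = 5.62e-07) that did not hold without TMM (-0.02, adjusted p = 0.301). Uqcrq, a small subunit near cytochrome b, ranged from 19.1 to 90.5 CPM among control mice and from 13.8 to 81.7 CPM among cKOt mice, and its fall of 0.19 ± 0.07 (edgeR adjusted p = 0.0127) was lost without replicate 1 (adjusted p = 0.0817), without replicate 5 (0.0672), without the RUVs factors for unwanted variation (0.103), and with library batch in their place (0.111).

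Complex IV, cytochrome c oxidase, had 0 higher (against 26.8% of all genes) and 7 lower (46.7%, against 23.2%) of 15 nuclear members (median -0.10). Without TMM 2 were higher (13.3%, against 49.6%) and 2 lower (13.3%, against 13.1%). Several of its subunits exist as isoforms that differ between tissues. The forms known from most tissues were abundant. Cox6b1 measured 236.9, 272.1, and 322.8 CPM in control mice and 209.3, 250.6, and 291.7 CPM in cKOt mice (-0.12 ± 0.03, edgeR adjusted p = 7.18e-05; -0.05 without TMM, adjusted p = 0.111). Cox7a2 measured 200.5, 239.0, and 321.3 CPM in control mice and 192.7, 217.2, and 255.1 CPM in cKOt mice (-0.14 ± 0.03, edgeR adjusted p = 1.08e-05; -0.05 without TMM, adjusted p = 0.108). Cox6a1 (-0.10, edgeR adjusted p = 0.00678) and Cox8a (-0.13, edgeR adjusted p = 0.000776) were also called lower with TMM and not without it. Cox4i1, Cox7a2l, and Cox7b had differences of -0.04, 0.02, and -0.01 and passed in neither direction with TMM. Without it, Cox7a2l (0.08) and Cox7b (0.08) were called higher, where the median of all genes was 0.09.

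Forms known from heart and skeletal muscle were scarce. Cox6a2 (ENSMUSG00000030785, chr7:128205435-128206387, minus strand) measured 0.23, 0.78, and 1.91 CPM in control mice and 0, 0.41, and 1.66 CPM in cKOt mice, from 0 to 33 counts per library. It fell by 1.02 ± 0.19 (edgeR adjusted p = 1.31e-05; -1.01 without TMM), with 27 of 30 cKOt mice below the control median, and the ranges overlapped. Cox7a1 measured medians of 6.72 and 6.31 CPM (-0.10 ± 0.06, edgeR adjusted p = 0.122). Cox8b, with 0 to 31 counts per library, reached 1 CPM only in cKOt mice, and its difference was 0.52 ± 0.48 (edgeR adjusted p = 0.378). Cox6b2, known from testis, measured medians of 2.71 and 2.20 CPM and fell by 0.24 ± 0.08 (edgeR adjusted p = 0.0121), a call that was lost without replicate 2 (adjusted p = 0.0853) and without replicate 4 (0.0635). Cox4i2, Cox7b2, and Cox8c stayed under 1 CPM.

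Complex V had 0 higher (against 26.8% of all genes) and 10 lower (58.8%, against 23.2%) of 17 nuclear members (median -0.07). Without TMM 3 were higher (17.6%, against 49.6%) and 0 lower (against 13.1%). Atp5b (ENSMUSG00000025393, chr10:128083273-128090391, plus strand), the catalytic beta subunit, had the highest level per length of the nuclear members (745 CPM per kb). It measured 2968, 3211, and 3513 CPM in control mice and 2795, 3091, and 3302 CPM in cKOt mice (-0.07 ± 0.02, edgeR adjusted p = 0.000138), with 25 of 30 cKOt mice below the control median, and its sign turned without TMM (0.01, adjusted p = 0.384). Atp5j, coupling factor 6 of the stalk, measured 199.6, 261.3, and 318.3 CPM in control mice and 192.5, 247.6, and 286.8 CPM in cKOt mice (-0.10 ± 0.02, edgeR adjusted p = 0.00012; -0.00 without TMM, adjusted p = 0.91). The membrane ring of the enzyme is built from a subunit c encoded by 3 genes. Of these, Atp5g3 was the most abundant at control and cKOt medians of 517.8 and 513.6 CPM, followed by Atp5g1 (79.1 and 77.3 CPM) and Atp5g2 (1.77 and 1.94 CPM). Their differences with TMM, -0.02, -0.06, and 0.13, did not pass, while without TMM those of Atp5g3 (0.07) and Atp5g2 (0.22) were called higher. The median of all genes without TMM was 0.09.

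Summed over members, nuclear transcripts took 17650, 19170, and 21180 CPM in control mice and 17460, 18560, and 20420 CPM in cKOt mice. Their means were 19260 and 18600 CPM. These CPM are scaled by TMM and are not shares of the counts of a library. The mt- transcripts took 89670, 102800, and 121400 CPM in control mice and 71810, 79440, and 101500 CPM in cKOt mice. Their means were 103000 and 82150 CPM. Nuclear sums overlapped over nearly their whole range. The mean of the cKOt mice differed by -3.43% for the nuclear sum and by -20.2% for the mt- sum, and the ratio of the mt- sum to the nuclear sum, which does not depend on scaling, by -17.3%. On total counts without TMM the nuclear means turned around, at 18690 CPM in control mice and 19160 CPM in cKOt mice, whereas the mt- means kept their order, at 99880 and 84520 CPM. By complex with TMM, the nuclear sums differed by -4.59% (I), 3.49% (II), -2.5% (III), -5.53% (IV), and -4.15% (V).

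**Figure D3:**
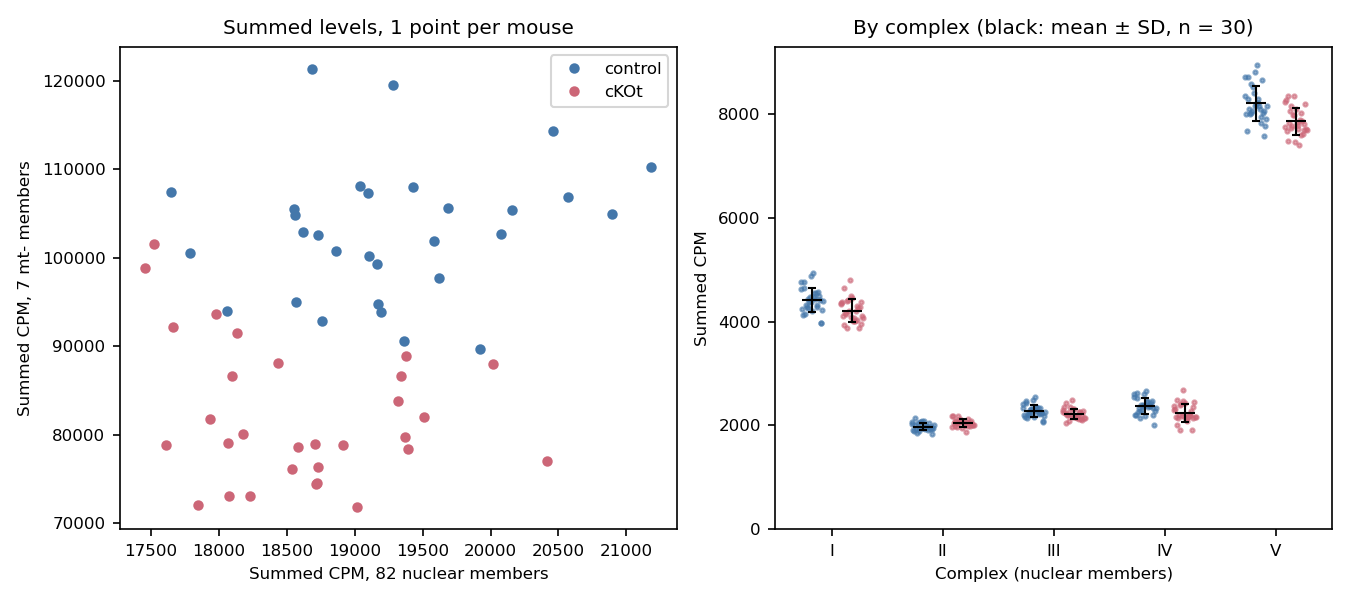
Left, summed CPM of the 7 mt- members (vertical axis) against that of the 82 nuclear members (horizontal axis), 1 point per mouse, both axes not starting at 0; right, summed CPM of the nuclear members of each complex, with black marks for the mean ± SD of 30 mice. On the mt- axis 25 of 30 cKOt mice lie below every control mouse and 5 lie above the lowest one, with medians of 79440 and 102800 CPM, and the nuclear sums overlap more widely, with control and cKOt medians of 19170 and 18560 CPM.

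The difference was then followed through the day. The mt- members were called lower at 6, 6, 5, 6, 6, and 7 of 7 at ZT0, 4, 8, 12, 16, and 20, with medians of -0.39, -0.40, -0.38, -0.39, -0.51, and -0.46. With TMM, of the nuclear members at ZT0, 1 was higher (6.63% of all genes) and 1 lower (5.49%). At ZT4, 1 was higher (6.2% of all genes) and 5 were lower (6.34%), or 3 without the library that stood apart. At ZT8, 2 were higher (10.6% of all genes) and 3 lower (9.29%). These shares of members were near or below the shares of all genes.

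At ZT12, 3 nuclear members were higher (10.3% of all genes) and 9 lower (10.8%). At ZT16, 2 were higher (10% of all genes) and 6 lower (9.75%). At ZT20, 1 was higher (5.98% of all genes) and 10 were lower (7.79%). The nuclear medians alternated, at -0.03, -0.12, -0.03, -0.10, -0.03, and -0.12 from ZT0 to ZT20. The F test of the interaction called 0 nuclear and 0 mt- members (3.08% of all genes), and DESeq2 and limma called 0 as well. On total counts without TMM, 6, 3, 4, 8, 12, and 5 nuclear members were higher and 0, 2, 1, 3, 3, and 3 lower from ZT0 to ZT20, while 5, 5, 5, 5, 5, and 6 mt- members were lower. Of all genes, 15.6%, 15.5%, 17.3%, 20.5%, 26.7%, and 19.2% were higher without TMM, and 3.75%, 4.42%, 6.68%, 6.45%, 5.45%, and 4.15% lower. The shares of nuclear members lay below these at every time point in both directions. For the interaction at an unadjusted p below 0.05, 3 nuclear members (3.66%, against 14.7% of all genes), Uqcrq, Ndufv3, and Cox6a2, and 0 mt- members passed.

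**Figure D4:**
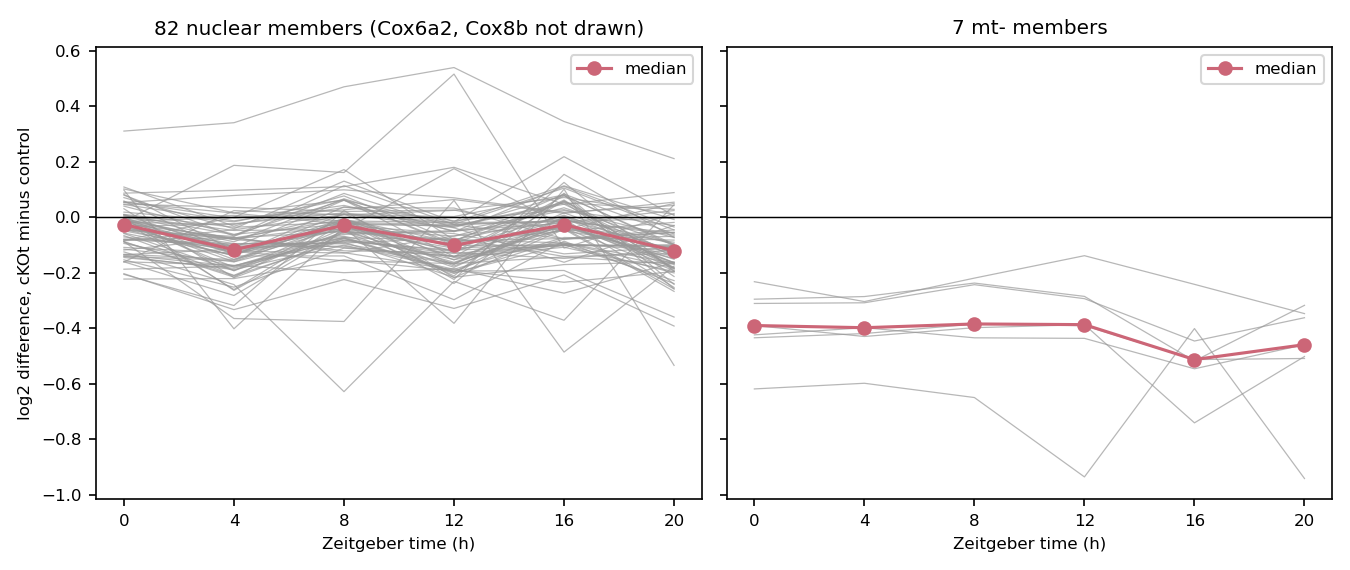
Log2 difference, cKOt minus control (vertical axis), at each Zeitgeber time in h (horizontal axis), with 1 grey line per gene and the median in red, for the nuclear members at the left and the mt- members at the right. The nuclear median stays between -0.12 and -0.03, and the mt- median between -0.51 and -0.38.

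Variation over the day was tested within each genotype by an F test of the 6 means. In control mice it was called for 1 nuclear member (1.22%, against 30.6% of all genes), Ndufb2, an accessory subunit of complex I (edgeR adjusted p = 0.0263), and for 0 mt- members. Ndufb2 had means from 11.6 CPM at ZT12 to 14.9 CPM at ZT0. Unadjusted, 6 nuclear members (7.32%, against 40.4% of all genes) and 0 mt- members passed. In cKOt mice it was called for 5 nuclear members (6.1%, against 26.6%) and 0 mt- members, with 13 (15.9%) and 2 (28.6%) unadjusted, against 38.4% of all genes. These 5 were the complex I subunits Ndufb10 (edgeR adjusted p = 0.0343), Ndufs7 (0.0424), and Ndufv2 (0.0493), Cox6a2 (0.00617), and the ATP synthase subunit Atp5l (0.0325). Without the library that stood apart the counts were 2 in control mice and 9 nuclear and 1 mt- members in cKOt mice.

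A cosine with a period of 24 h was also fitted, and 5 models were weighed as in dryR. Model 1 (no rhythm) took 38 nuclear members (46.3%, against 34% of all genes). Model 2 (rhythm in control mice only) took 1, Uqcrc2 (6.25% of all genes), model 3 (rhythm in cKOt mice only) took 2, Cox6a2 and Atp5g1 (3.42%), and model 5 (altered rhythm) took 0 (2.37%). Model 4 (the same rhythm in both genotypes) took 11 (13.4%, against 25.2%), and 30 stayed unassigned.

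Those 11 were Ndufa12, Ndufb2, Ndufb5, Ndufb6, Ndufb7, Ndufb8, and Ndufb10 of complex I, Cyc1 and Uqcrh of complex III, and Atp5h and Atp5j2 of complex V. Their common fits peaked between ZT19.3 and ZT22.8, in the later night, with peak-to-trough amplitudes of 0.09 to 0.22 on the log2 scale. Without the library that stood apart, 6 members were in model 4. Of the mt- members, 5 were in model 1, mt-Nd5 was unassigned, and mt-Co1 was in model 3, with an F test over time in cKOt mice that did not pass (edgeR adjusted p = 0.106).

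In control mice the nuclear median was 0.12, compared with 0.20 for all genes, and an amplitude above 0.5 was reached by 1 nuclear member (1.22%), the scarce Cox8b, against 13.4% of all genes. In cKOt mice the nuclear median was 0.10, against 0.19 for all genes, and 1 member exceeded 0.5, the scarce Cox6a2 at 1.48 (11.3% of all genes). The fitted control peak lay between ZT16 and ZT24 in 70 of 82 nuclear members (85.4%, against 39.0% of all genes) and the cKOt peak in 63 (76.8%, against 40.4%). Most of these fits were not assigned a rhythm, and the members share libraries, so their shared peak time is not a count of independent observations.

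**Figure D5:**
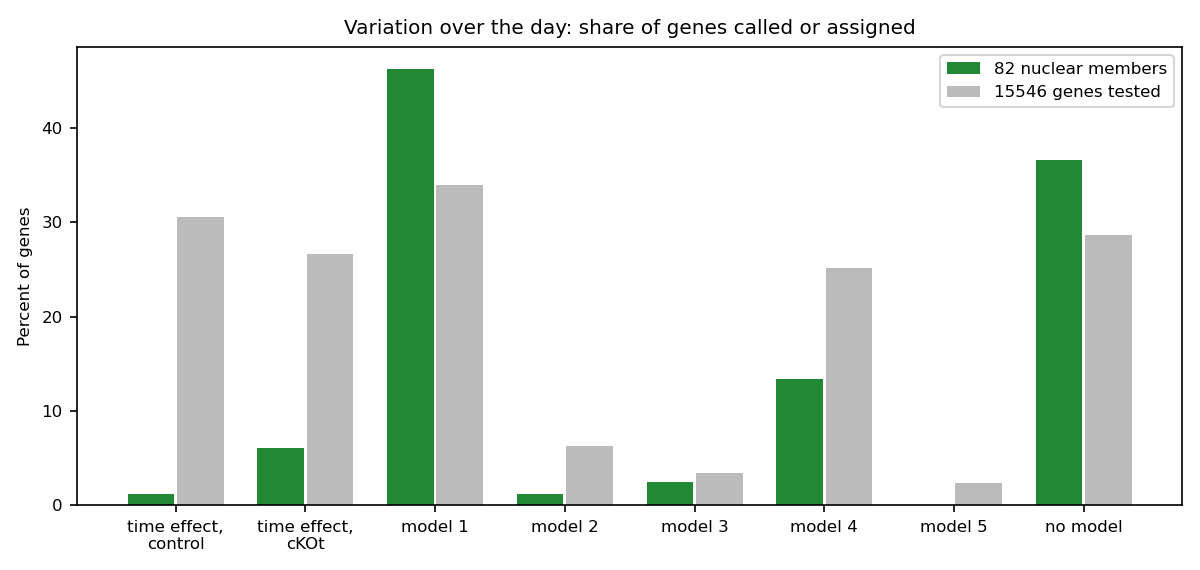
Percent of genes (vertical axis, from 0) called for a time effect in each genotype, assigned to each rhythm model, or left unassigned, for the 82 nuclear members (green) and all 15546 genes tested (grey). The members show fewer time effects in control mice (1.22% against 30.6%) and more genes without rhythm (46.3% against 34%).

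Other genes of the pathway were counted in the same fits, where 26.8% of all genes were higher and 23.2% lower with TMM, and 49.6% and 13.1% without. Of 49 assembly factors, 9 were higher (18.4%) and 10 lower (20.4%), and without TMM 25 and 6. Ndufaf4, a complex I factor, fell by 0.42 ± 0.03 (edgeR adjusted p = 1.99e-20), and Nubpl, which delivers iron-sulfur clusters to complex I, rose by 0.21 ± 0.02 (7.59e-11). Of 18 genes of electron carriers and ubiquinone synthesis, 3 were higher (16.7%) and 7 lower (38.9%), and without TMM 9 and 5. Among them, cytochrome c itself, Cycs, fell by 0.36 ± 0.03 (edgeR adjusted p = 2.02e-15), and Etfb, which carries electrons from fatty acid oxidation, fell by 0.47 ± 0.05 (2.26e-11). Coq8a, an atypical kinase needed for ubiquinone synthesis, rose by 0.64 ± 0.04 (1.29e-21), with a cKOt median of 174.2 CPM against 115.1 CPM, and Coq10b, a ubiquinone-binding protein, fell by 0.91 ± 0.05 (4.34e-23), with medians of 63.4 and 36.4 CPM. Of 14 genes of the TCA cycle, 1 was higher (7.14%) and 8 lower (57.1%), and without TMM the order turned, to 7 and 3. Of 10 genes of ATP export and carriers, 1 was higher and 4 lower, and without TMM 4 and 3, with the uncoupling protein Ucp2 at -1.52 ± 0.06 (3.64e-30) and the ADP/ATP carrier Slc25a5 at -0.21 ± 0.02 (1.23e-14). Each gene named from these lists was called in the same direction without TMM.

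Of 26 genes that maintain and express mitochondrial DNA, 6 were higher (23.1%) and 8 lower (30.8%), shares near those of all genes, and without TMM 17 and 1. Tfam, which packages mitochondrial DNA and activates its transcription, had a difference of -0.05 ± 0.02 (edgeR adjusted p = 0.0302) that turned to 0.05 without TMM (0.0177). Polrmt, the RNA polymerase of mitochondrial DNA, had -0.00 ± 0.03 (edgeR adjusted p = 0.946). Lrpprc and Slirp, which bind and stabilize its mRNAs, had -0.08 ± 0.02 (edgeR adjusted p = 0.000102) and -0.14 ± 0.04 (0.0011), and neither was called without TMM. Twnk, its helicase, rose by 0.12 ± 0.02 (edgeR adjusted p = 1.63e-05; 0.21 without TMM). Of 14 regulators of nuclear subunit genes, 5 were higher (35.7%) and 4 lower (28.6%), and without TMM 10 and 2. The coactivator Ppargc1a rose by 0.10 ± 0.03 (edgeR adjusted p = 0.00224), and Esrra and Ppara fell by 0.14 ± 0.03 (7.88e-05) and 0.30 ± 0.04 (5.55e-09), all in the same direction without TMM.

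Markers of cell types were counted beside these results, against the same shares of all genes. Proximal tubule markers had 3 higher and 6 lower of 10 (3 and 5 without TMM), with summed levels of 15310, 17270, and 20280 CPM in control mice and 13960, 15270, and 19440 CPM in cKOt mice. Thick ascending limb markers had 4 higher and 1 lower of 6 under both scalings, while their summed level went the other way (medians of 6285 and 5765 CPM). Distal convoluted tubule markers had 4 higher and 0 lower of 5 under both (1536 and 1689 CPM), and collecting duct markers 6 higher and 2 lower of 10 (455.4 and 476.4 CPM; 7 and 2 without TMM). Endothelial markers had 0 higher and 7 lower of 7 (533.3 and 491.2 CPM), but 2 lower without TMM. Fibroblast and mural markers had 0 and 6 of 7 under both (238.5 and 198.6 CPM), macrophage markers 0 and 6 of 7 (206.8 and 180.5 CPM; 0 and 5 without TMM), and T and B cell markers 0 and 3 of 3 under both (2.36 and 1.64 CPM). Few of the remaining markers passed, with podocyte markers at 1 higher and 0 lower of 5 (351.7 and 342.7 CPM; 2 and 0 without TMM), tubule injury markers at 1 and 1 of 4 (15.6 and 13.2 CPM; 0 and 1 without TMM), and red blood cell markers at 0 and 0 of 2 (0.42 and 0.21 CPM). Their part in the differences of the subunit genes was not tested.

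Promoters were searched for short motifs in the 300 bases from 250 before to 50 after the start of transcription, on both strands, for the 67 nuclear members with a RefSeq promoter (GRCm38.p6). NRF1, GABP, YY1, and ERR are factors known to act on nuclear subunit genes, and BMAL1 binds the E-box. The NRF1 motif CGCATGCG was found in 9 members (13.4%, against 2.07% of 27025 genes), the ETS motif CCGGAAGT of GABP in 5 (7.46%, against 4.31%), the YY1 motif AAGATGGC in 10 (14.9%, against 3.19%), and the ERR motif TCAAGGTCA in 2 (2.99%, against 0.466%). The 27025 genes were all those with a promoter window, whether or not expressed in kidney, while members had to reach 1 CPM. The shares are therefore not matched for expression. Of the clock motifs, the E-box CACGTG was found in 6 (8.96%, against 8.09%), the D-box TTATGTAA in 1 (1.49%, against 1.11%), and the ROR motif TAGGTCA in 3 (4.48%, against 2.97%). Of the 6 with an E-box (Atp5f1, Atp5g1, Atp5g3, Atp5l, Ndufa7, and Ndufv1), with TMM 2 were lower, 0 higher, and 0 varied over the day in control mice. With TMM, 51.2% of the 82 nuclear members and 23.2% of all genes were lower, and 1.22% and 30.6% varied over the day in control mice. Without TMM, where the median of all genes was 0.09, Atp5g3 was called higher (0.07) and Ndufv1 lower (-0.09). The rest of the E-box members passed in neither direction.

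Promoters are shown for the complex I member with the strongest rise, a complex I member that fell, and members of complexes III and V. The latter, Uqcrh and Atp5j, were called lower with TMM, and only Uqcrh also without it. The promoters run 5′ to 3′ on the strand of the gene, with matches in capitals. They are Ndufv3 (chr17:31519865-31520164, plus strand, no match), Ndufv1 (chr19:4012706-4013005, minus strand, E-box 169 bases before the start), Uqcrh (chr4:116075021-116075320, minus strand, the ETS motif on the opposite strand 11 bases before the start), and Atp5j (chr16:84834927-84835226, minus strand, NRF1 and YY1 motifs 147 and 88 bases before the start). Atp5j has another annotated start (chr16:84835576-84835875), whose window held no match. Among windows not shown, those of Ndufa13, which also fell, and of Sdha, which rose, held no match. That of Cox6a1, called lower with TMM only, held the NRF1 motif. Whether a match goes with the direction of the difference was not tested.
Ndufv3: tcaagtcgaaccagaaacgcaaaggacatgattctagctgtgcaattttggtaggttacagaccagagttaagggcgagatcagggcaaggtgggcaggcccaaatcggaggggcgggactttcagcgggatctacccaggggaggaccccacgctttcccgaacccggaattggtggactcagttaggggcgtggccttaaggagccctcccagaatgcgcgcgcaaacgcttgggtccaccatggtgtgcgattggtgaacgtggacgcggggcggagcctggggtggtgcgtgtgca
Ndufv1: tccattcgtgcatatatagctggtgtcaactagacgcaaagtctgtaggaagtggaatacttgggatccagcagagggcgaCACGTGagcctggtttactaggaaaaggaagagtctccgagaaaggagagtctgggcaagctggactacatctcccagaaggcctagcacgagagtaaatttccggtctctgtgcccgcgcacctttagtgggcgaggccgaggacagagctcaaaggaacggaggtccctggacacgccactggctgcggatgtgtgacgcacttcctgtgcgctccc
Uqcrh: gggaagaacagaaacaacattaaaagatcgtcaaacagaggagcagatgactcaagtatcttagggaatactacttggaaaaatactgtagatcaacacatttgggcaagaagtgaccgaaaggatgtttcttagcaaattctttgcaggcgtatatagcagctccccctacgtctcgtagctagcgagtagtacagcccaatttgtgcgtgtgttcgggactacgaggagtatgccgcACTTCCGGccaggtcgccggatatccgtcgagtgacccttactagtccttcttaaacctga
Atp5j: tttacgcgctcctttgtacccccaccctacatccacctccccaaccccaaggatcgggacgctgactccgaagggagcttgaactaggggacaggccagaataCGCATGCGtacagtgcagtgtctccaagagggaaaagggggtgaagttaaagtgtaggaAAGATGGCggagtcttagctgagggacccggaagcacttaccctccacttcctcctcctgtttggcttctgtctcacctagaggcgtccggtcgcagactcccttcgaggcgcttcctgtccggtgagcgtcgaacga
A match is a run of letters in these windows and does not show binding, and the absence of a match says nothing of a factor.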

How the data were processed

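RNA-Seq counts of 60 kidneys were used as deposited. Per the labels and methods, the authors made stranded poly(A) libraries, trimmed single reads with cutadapt (version 1.8), aligned them to GRCm38 with STAR (version 2.5.3a), and counted whole reads per Ensembl gene with HTSeq (version 0.9.1), without pooling. The annotation release is not given in the sources used here. Symbols and positions came from GENCODE release M21. Lines of the counting program that name no gene were left out, with medians of 26.1% of records aligned in more than 1 place, 6.33% outside genes, and 0.840% ambiguous. The number of counts on genes limits precision only for scarce transcripts.

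Genotype, time point, and replicate number came from the labels, and library batch from the study's sample table. Each sample is a separate mouse. The authors kept 5 of the mice in each group by RNA quality and distance from the other replicates. Genes that reached 1 CPM in any 1 sample entered the fit in edgeR (version 4.0.16; R 4.3.3), with TMM, 12 groups, 2 RUVs factors (written anew, prior count 2), and the quasi-likelihood F test with Benjamini-Hochberg adjustment and a threshold of 0.05. Rhythm models were assigned at a BIC weight of 0.65. CPM values are TMM scaled. The procedure was tested on simulated data.

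The members and lists were chosen with earlier results of these data known. Named genes were all mt- members, the Sdh genes, per complex the 2 nuclear members with the smallest p in each direction and the one with the highest level per length, the 3 with the largest control amplitude, the 3 with the smallest interaction p, and the isoform families. Ndufb2, the members of the models, the other genes with a time effect, and the genes named from other lists were added after their values were seen. Lists covered assembly factors, electron carriers and ubiquinone synthesis, mitochondrial DNA expression, regulators, TCA cycle, ATP export, and markers of 11 cell types or states. Alternatives were DESeq2 (version 1.42.0) size factors and test, limma (version 3.58.1), no filter, filterByExpr, no RUVs factors, batch in place of RUVs, a replicate block, library sizes without mt- genes, a fold change above 1.2, other BIC weights, leaving out each replicate number, and leaving out a sample marked for removal in the study's table. Leaving out 1 cKOt library at ZT4 and total counts without TMM were added after the data were seen.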

Additional observations from a re-analysis of the deposited data

Results flagged for a closer look

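In 60 groups of 5 mice, 6 held a mouse whose gap to its neighbor passed Dixon's limit, where chance flags about 1 in 20. The groups were the summed nuclear and mt- levels and the levels of Ndufb2, Cox6a2, and Ndufv3 at each time point and genotype. The same mice entered for each level, and cKOt mouse 5 at ZT4 and control mouse 2 at ZT12 were flagged more than once. The flags are therefore not independent. The summed mt- level of cKOt mouse 5 at ZT4 was 101500 CPM, against 76080 to 81800 CPM in the other 4, and its Ndufv3 level was 90.1 CPM, against 125.6 to 137.5 CPM. The summed mt- level of cKOt mouse 3 at ZT20 was 86600 CPM, against 78850 to 80050 CPM. Control mouse 2 had 14.45 CPM of Ndufb2 at ZT4, against 11.26 to 11.71 CPM, and, as another animal with that number, 13.87 CPM at ZT12, against 10.74 to 11.64 CPM. The latter also had 1.70 CPM of Cox6a2, against 0.23 to 0.45 CPM.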

How the results depend on the processing

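All 7 mt- members were called lower under every alternative to the whole fit, and 6 with a fold change above 1.2. Their median was -0.35 (-0.3549) on total counts without TMM and -0.278 (batch 2), -0.522 (batch 4), and -0.276 (batch 5) within batches, against -0.44. For nuclear members, total counts without TMM gave 19 higher and 11 lower (3 and 42 with TMM) and turned the median to 0.0040, with 29 of 82 members changing sign, among the named genes Sdhd (0.079), Atp5b (0.014), Atp5g3 (0.070), Cox7b (0.079), Atp5g1 (0.012), and Cox4i1 (0.024), because that setting shifts the median of all genes from 0.01 to 0.09. A fold change above 1.2 left 1 higher and 2 lower, and leaving out replicates gave 3 to 4 higher and 32 to 51 lower. Within batches the nuclear median was -0.146 (batch 2), -0.039 (batch 4), -0.118 (batch 5), and -0.0052 (batch 6). Without mt- genes in the library sizes the summed means were 21250 and 20460 CPM for nuclear and 113600 and 90360 CPM for mt- members in control and cKOt mice, since the totals are smaller.

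Counts over the day depended on the settings. For the nuclear time effect in control mice (1), limma, the fit without the marked sample, without cKOt mouse 5 at ZT4, and without TMM gave 2, no filter and no RUVs factors gave 0, and leaving out replicates 0 to 5. In cKOt mice (5), DESeq2 gave 8, no RUVs factors 12, without the marked sample 3, without cKOt mouse 5 at ZT4 9, and leaving out replicates 1 to 4, while mt- members (0) were 1 under DESeq2, no RUVs factors, batch, and either omission, and 0 to 2 leaving out replicates. The nuclear interaction was 0 to 1 leaving out replicates. With BIC weights of 0.5 and 0.8, model 4 (11) held 18 and 5, model 2 (1) 5 and 0, and with 0.8 model 1 (38) held 23, model 3 (2) 1, and mt- model 3 (1) 0. Without RUVs correction models 1 to 4 held 59, 0, 1, and 3, and mt- model 3 held 0. With 1 factor model 2 held 3, with library sizes without mt- genes 0, and without cKOt mouse 5 at ZT4 model 4 held 6. Leaving out replicates gave 28 to 49, 0 to 7, 1 to 2, 3 to 12, and 0 to 1 for nuclear models 1 to 5, and 3 to 5, 0 to 1, and 0 to 1 for mt- models 1, 3, and 4. The cause was not tested.

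At single time points without TMM, nuclear members higher were 6, 3, 4, 8, 12, and 5 and lower 0, 2, 1, 3, 3, and 3 from ZT0 to ZT20. These were smaller shares than those of all genes in the same fit (15.6% higher and 3.75% lower at ZT0, 26.7% and 5.45% at ZT16). Without RUVs factors, nuclear members lower were 0, 8, 1, 1, 3, and 3 from ZT0 to ZT20, higher 2 at ZT4, 1 at ZT8, and 0 at ZT20, and mt- members lower 3 at ZT4. With library sizes without mt- genes, 2 were lower at ZT0 and 1 higher at ZT8, and without cKOt mouse 5, 3 were lower at ZT4. Replicate numbers do not mark the same animal across groups, and residuals of same-numbered mice had a mean correlation of 0.00433, against -0.00103 for others. With the replicate block, 3 nuclear members were higher and 43 lower (median -0.0753) and 7 mt- members lower. Of 612 values of 36 named genes under alternatives, 578 kept their direction and side of the threshold, 18 lost and 5 gained a call, and 11 changed sign. The sign changes other than those without TMM came from leaving out replicates, in genes not called, with ranges of -0.00393 to 0.0238 (Sdhb), -0.0237 to 0.00318 (Sdhd), -0.00738 to 0.0367 (Cox7a2l), -0.0517 to 0.00403 (Cox7b), and -0.509 to 0.788 (Cox8b).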
